A study of Rattus norvegicus with 6 samples.

Results

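The antioxidant enzymes examined here were 10 genes picked by name for their role: Sod1, Sod2, Cat, Gpx1, Prdx1, Prdx4, Txn1, Txnrd1, Hmox1 and Gclc. A gene was read from its brightest probe set (a group of short probes against 1 transcript) among those annotated with a single gene symbol. Of the 10 genes 9 were measured, out of 14217 genes read in the same way, through 11 of the 31042 probe sets on the array. Txnrd1 and Gclc had 2 probe sets each and the other 7 genes had 1. Prdx1, a cytosolic peroxiredoxin, had only a probe set that is annotated with a further gene, and no level is given for it.

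Beta cells came from male Wistar rats aged 10 weeks, either after a fast of 24 h or with free access to food. Each group had 3 isolates purified by fluorescence-activated cell sorting, each isolate pooled 5 rats and was hybridized to 1 array, and the labels give 92 ± 3% insulin-positive cells. The comparison addresses how the beta cell transcriptome differs with the feeding state of the animal. Since animals were pooled, the spread between arrays is that between isolates and not between rats. In such bulk samples fewer cells of a type and less RNA per cell cannot be told apart.

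Antioxidant enzymes work in sequence. Superoxide dismutases turn superoxide into hydrogen peroxide, which catalase, glutathione peroxidases and peroxiredoxins reduce, and thioredoxin and glutathione return the peroxidases to their reduced state with electrons from NADPH. Pancreatic beta cells are known for low levels of catalase and glutathione peroxidase compared with liver, and for a high load of disulfide bond formation in the ER, which itself yields hydrogen peroxide.

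Many of these genes are targets of the transcription factor NRF2, which binds antioxidant response elements together with small MAF proteins. The short cores TGACNNNGC and TGAGNNNGC of this element were searched on both strands of a window of 250 bases before to 50 bases after the gene start (RefSeq, GRCr8). A window may hold both cores. Windows were at hand for 9 of the 10 genes, all but Hmox1, and 4 of the 9 (44.4%) held a core, namely those of Sod2, Gpx1, Prdx1 and Prdx4. Of the other antioxidant genes described below 38 of 114 windows (33.3%) held one, and of all windows 9063 of 33469 (27.1%). The shares of the antioxidant genes took a single window per gene symbol, while the share of all windows counted every window. The windows of Sod1, Cat, Txn1, Txnrd1 and Gclc did not hold these letters. The stretches of Sod2 and Gpx1 are shown because Sod2 was the gene among the 9 with higher values on every fasted array and Gpx1 the one with the smallest difference, with the core in capitals. The stretch of Sod2 is chr1:50050169-50050233, minus strand, with the core read from the opposite strand. The leftmost capital as shown lies at -35. That of Gpx1 is chr8:117905212-117905278, plus strand, with the core on the same strand from -222.
Sod2: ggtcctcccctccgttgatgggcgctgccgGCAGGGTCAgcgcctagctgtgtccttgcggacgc
Gpx1: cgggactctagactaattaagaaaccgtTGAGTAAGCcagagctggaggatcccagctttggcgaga

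The deposited values are linear intensities. The array medians were 17.1, 17.8 and 21.0 in fasted isolates and 21.1, 21.8 and 20.2 in fed isolates, so that the median gene had a log2 ratio of -0.19 (fasted over fed) before any result on single genes. Changes are given as this log2 ratio from limma, two-sided, with p adjusted over the 31042 probe sets. A gene was called when it passed the thresholds of the study, 1.5-fold and an unadjusted p of 0.05. Of all genes 9.51% were lower and 2.29% higher after fasting by this rule, and 0% passed an adjusted p of 0.05, with 0.155 as the smallest adjusted p. The number of arrays limits the precision, and an exact permutation test of 3 against 3 arrays cannot give a p below 0.10. The 8 beta cell markers measured summed to 22850 to 24330 in fasted and 23720 to 24960 in fed isolates. Markers of acinar, duct and other endocrine cells were seen on every array, with acinar sums (11 genes) of 50880 to 57190 in fasted and 54390 to 58170 in fed isolates. Of these markers 3 beta and 8 acinar ones averaged over 5000, near the array maxima of 7000 to 7629, where the signal may be saturated, so that like sums do not show like amounts. Alpha cell sums (4 genes) were 5060 to 5844 in fasted and 3568 to 7862 in fed isolates, and fed replicate 2 had the highest of the fed values for alpha, delta, PP, duct, macrophage, erythroid and stellate cells. Gcg, by far the brightest alpha marker, averaged 5329 in fasted and 5196 in fed isolates and reached 7629 in fed replicate 2. The same limit of saturation holds for the alpha sums.

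None of the 9 genes passed both thresholds in either direction. The 3 genes Sod1, Txn1 and Cat had lower values on every fasted array than on any fed array, beside 21.2% of all genes with that order. Sod2 was the 1 gene with higher values on every fasted array, beside 5.76% of all genes, and the remaining 5 genes overlapped between the groups. The same 4 genes had an unadjusted p under 0.05 in limma, 3 lower and 1 higher, where 14.9% of all genes were lower and 3.64% higher at that p. The median log2 ratio of the 9 genes was -0.18, close to that of all genes.

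**Figure D1:**
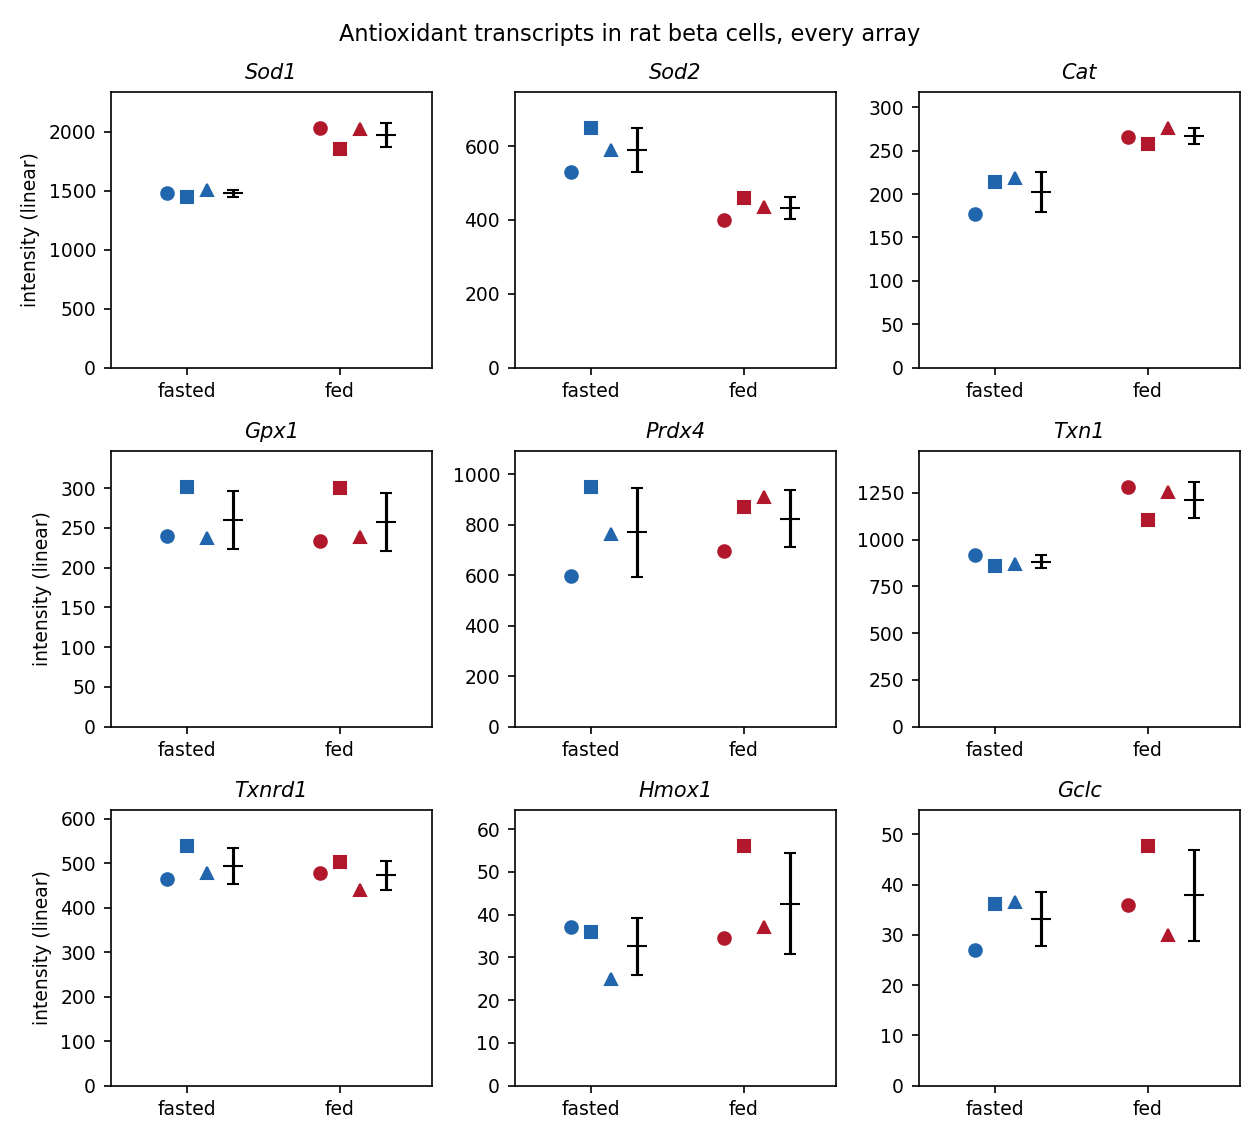
Linear intensity of the brightest probe set of each of the 9 measured genes (y axis, from 0, own scale per gene) in fasted (blue) and fed (red) isolates. Circles, squares and triangles are replicates 1, 2 and 3, and the bar gives the mean ± SD of 3 arrays. Sod1, Cat and Txn1 lie lower on all 3 fasted arrays, Sod2 lies higher on all 3, and the other 5 genes overlap.

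The superoxide dismutases of cytosol and mitochondria lay on opposite sides of the fed level. Sod1, the copper and zinc enzyme of the cytosol, measured 1481, 1446 and 1505 in fasted isolates against 2032, 1856 and 2024 in fed isolates. The fasted arrays lay within a narrow band below all fed arrays, and fed replicate 2 was the fed array nearest to them. The log2 ratio was -0.41 (SE 0.07, adjusted p = 0.167 in limma), and its 95% confidence interval was -0.58 to -0.25.

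Sod2, the manganese enzyme of the mitochondrial matrix, measured 529, 649 and 589 in fasted isolates against 401, 459 and 435 in fed isolates. All fasted values exceeded all fed values, with replicate 2 the highest in both groups. The log2 ratio was 0.45 (SE 0.10, adjusted p = 0.212 in limma), or 136% of the fed level, and its 95% confidence interval was 0.19 to 0.70. Markers of duct cells included some that moved the same way. Krt19, a keratin of duct epithelium, measured 88.9, 80.3 and 88.0 in fasted and 56.8, 46.4 and 55.6 in fed isolates, and was the 1 of 5 duct markers that rose past both thresholds (log2 ratio 0.70, adjusted p = 0.192 in limma). Krt7 was also higher on every fasted array, with a log2 ratio of 0.37, while Krt18 was at 0.00, Cftr at -0.25 and Spp1 at 0.19. The summed duct signal was 1382 to 1555 in fasted and 1274 to 1440 in fed isolates, and its part in the Sod2 result was not tested.

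The contrast within the pair was also computed inside each array, where a common scaling of the array cancels. The pair was chosen after its values were seen. The log2 ratio of the Sod2 signal over the Sod1 signal was -1.49, -1.16 and -1.35 in fasted isolates against -2.34, -2.01 and -2.22 in fed isolates. Only the shift of this ratio between the groups can be read, since levels of different probe sets are not on one scale. The shift was 0.86, with no overlap between groups, at the smallest p the design allows (exact two-sided permutation test, p = 0.1). Sod2 was higher and Sod1 lower on every fasted array, so the ratio had to separate the groups. This p was thus fixed in advance and adds nothing to the single genes. Of the other proteins of superoxide dismutation, the secreted enzyme Sod3 had a log2 ratio of -0.19 and Ccs, the copper chaperone of Sod1, one of -0.06, and both overlapped between groups.

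Of the enzymes that remove hydrogen peroxide, catalase was lower on every fasted array, and glutathione peroxidase 1 and peroxiredoxin 4 overlapped between the groups. Cat, the peroxisomal catalase, measured 176, 213 and 219 in fasted isolates against 266, 257 and 276 in fed isolates. Fasted replicate 1 was lowest, and the highest fasted array stayed below the lowest fed array. The log2 ratio was -0.40 (SE 0.11, adjusted p = 0.25 in limma), or 75.8% of the fed level.

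Gpx1, the selenium-dependent glutathione peroxidase of cytosol and mitochondria, measured 240, 302 and 237 in fasted isolates and 234, 300 and 238 in fed isolates. Replicate 2 was the high array of each group and the remaining arrays were nearly level. With the values as deposited, the log2 ratio was 0.01 with a 95% confidence interval of -0.35 to 0.37 (adjusted p = 0.979 in limma). This interval lies inside 1.5-fold in both directions. Without fasted replicate 2 the log2 ratio was -0.10.

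Prdx4, the peroxiredoxin of the ER, measured 597, 949 and 763 in fasted isolates and 694, 868 and 908 in fed isolates. The groups overlapped over most of their range, with replicate 1 lowest in each. The log2 ratio was -0.11 (SE 0.19, adjusted p = 0.774 in limma), and it was 0.06 without fasted replicate 1.

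In the thioredoxin pair, the thioredoxin lay lower on every fasted array and its reductase overlapped between the groups. Txn1, the cytosolic thioredoxin that reduces peroxiredoxins, measured 920, 857 and 870 in fasted isolates against 1282, 1103 and 1255 in fed isolates. As for Sod1, the fasted arrays were close together and below all fed arrays, of which replicate 2 was lowest. The log2 ratio was -0.46 (SE 0.08, adjusted p = 0.176 in limma), or 72.8% of the fed level.

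Txnrd1, the selenoenzyme that reduces thioredoxin with NADPH, measured 464, 538 and 478 in fasted isolates and 477, 502 and 438 in fed isolates on its brighter probe set. The groups overlapped, with a log2 ratio of 0.06 (SE 0.09, adjusted p = 0.748 in limma). Its dimmer probe set read 52.4, 116 and 122 in fasted isolates and 135, 122 and 120 in fed isolates, so that fasted replicate 1 alone stood apart. The log2 ratio there was -0.47 (SE 0.33, adjusted p = 0.502 in limma), and the mean of both probe sets gave -0.20.

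The dimmest of the 9 genes were the inducible heme oxygenase and the enzyme that starts glutathione synthesis. Hmox1, which breaks down heme, measured 37.1, 35.8 and 24.96 in fasted isolates and 34.5, 56.1 and 37.2 in fed isolates. Fed replicate 2 was the highest and fasted replicate 3 the lowest, with the other arrays within a narrow band, and the log2 ratio was -0.37 (SE 0.29, adjusted p = 0.530 in limma).

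Gclc, the catalytic subunit of glutamate-cysteine ligase, measured 26.9, 36.0 and 36.5 in fasted isolates and 36.0, 47.7 and 29.9 in fed isolates. Again fed replicate 2 was highest and the groups overlapped, with a log2 ratio of -0.18 (SE 0.26, adjusted p = 0.740 in limma). The second probe set read 21.0, 19.0 and 25.5 in fasted isolates and 25.2, 35.0 and 18.9 in fed isolates (log2 ratio -0.24), with the same array on top. Fed replicate 2 also had the highest summed macrophage and stellate markers among the fed arrays. The 11 macrophage genes summed to 150 to 168 in fasted and 140 to 194 in fed isolates. The 7 stellate genes summed to 285 to 351 in fasted and 213 to 512 in fed isolates. Of these genes 9 macrophage and 3 stellate ones were dimmer than the median probe set, so that these sums need not mark such cells. The part of such cells in the 2 transcripts was not tested, and without fed replicate 2 the log2 ratio of Gclc was 0.00 and that of Hmox1 -0.16. Without fasted replicate 3, its lowest array, Hmox1 was at -0.19.

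**Figure D2:**
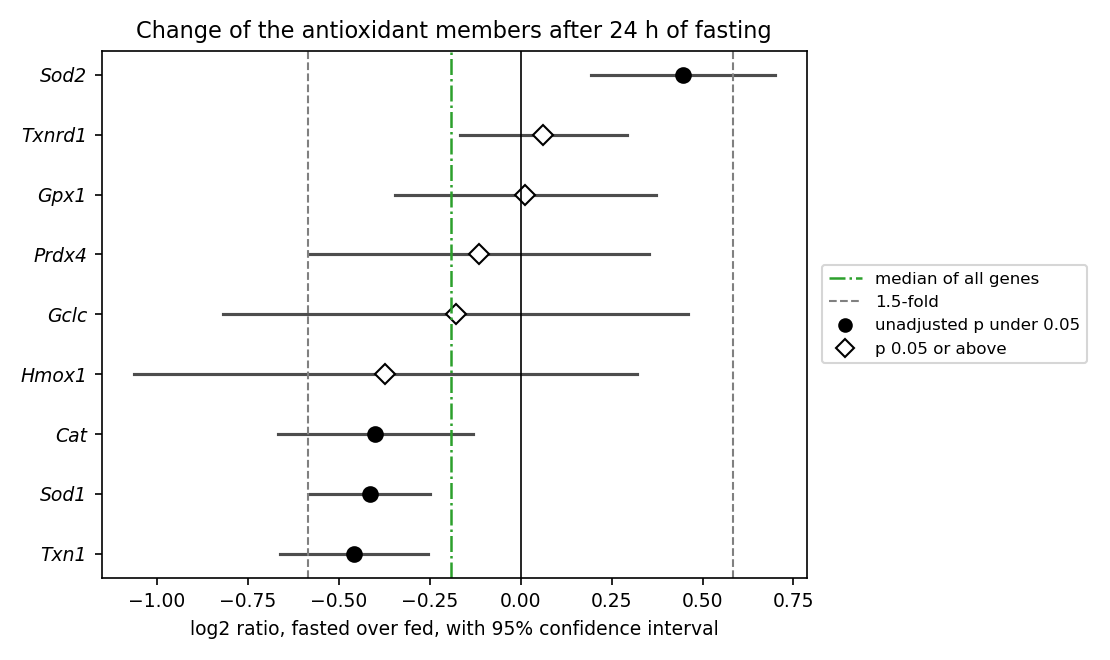
Log2 ratio of fasted over fed (x axis) with its 95% confidence interval for each of the 9 genes, ordered from high to low, with dashed lines at 1.5-fold and a green line at the median of all genes. Filled circles mark an unadjusted p under 0.05 and open diamonds a p of 0.05 or above. Txn1, Sod1 and Cat lie between -0.46 and -0.40 and Sod2 at 0.45, all inside the 1.5-fold lines.

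The size of these differences moved with the scaling of the arrays. When the arrays were quantile-normalized, the median log2 ratio of all probe sets was -0.02, and the ratios of Sod1, Txn1 and Cat were -0.29, -0.31 and -0.27. With the 75th percentiles of the arrays made equal, the median was 0.01 and the ratios were -0.17, -0.21 and -0.16, and none of the 3 had a p under 0.05 any more (unadjusted p of 0.214, 0.180 and 0.125 in limma). The sign of Prdx4 and Gclc turned under both scalings, to 0.03 and 0.13 for Prdx4 and to 0.04 and 0.07 for Gclc. Sod2 had a ratio of 0.58 by quantiles and of 0.69 by the 75th percentile, the last one past 1.5-fold. Txnrd1 was at 0.31 by the 75th percentile (unadjusted p = 0.0468 in limma). Gpx1 was at 0.14 by quantiles and at 0.26 by the 75th percentile (unadjusted p = 0.193 in limma for the latter). Relative to the median of all probe sets, Sod1 was at -0.21 as deposited, -0.27 by quantiles and -0.18 by the 75th percentile, and Sod2 at 0.65, 0.60 and 0.68.

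**Figure D3:**
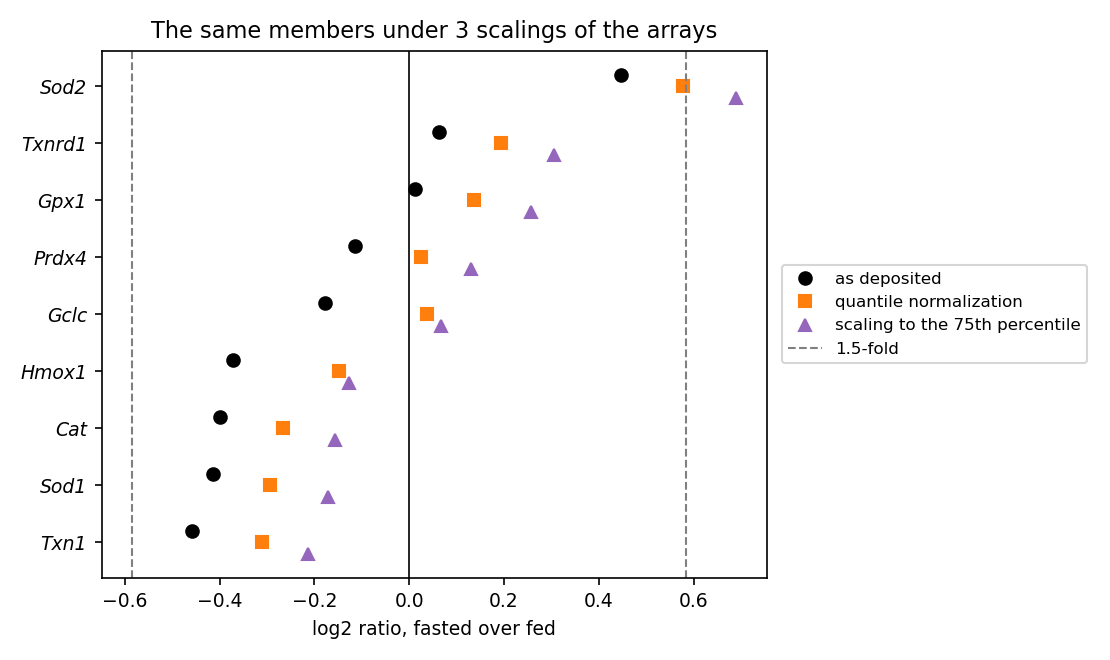
Log2 ratio of fasted over fed (x axis) for each of the 9 genes with the intensities as deposited (circles), quantile-normalized (squares) or brought to a common 75th percentile (triangles), with dashed lines at 1.5-fold. Every gene shifts to the right under both scalings. Sod1, Txn1 and Cat stay below 0 and Sod2 above, while Prdx4 and Gclc cross 0.

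Sod1, the gene of the 9 with the largest moderated t, was used to look for genes with a like pattern. Over the 6 arrays and 9201 genes brighter than the median probe set, the highest Pearson correlations of log2 values with Sod1 were those of Abcf1 (r = 0.999), Sh3kbp1 (r = 0.998), Srpra (r = 0.996), Serf2 (r = 0.995) and Sdf2l1 (r = 0.995). Abcf1 measured 122, 119 and 129 in fasted isolates against 205, 182 and 207 in fed isolates. As for Sod1, fed replicate 2 was the lowest fed array. The genes share the arrays and the difference between the groups, so that the correlations are descriptive.

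The wider antioxidant system was covered by 132 further measured genes in 12 lists. Of these 20 were lower and 0 higher past both thresholds (15.2% lower, beside 9.51% of all genes), and 112 did not pass. Their median log2 ratio was -0.27 beside -0.19 for all genes. The split depended on the scaling, with 11 lower and 2 higher by quantiles and 7 lower and 4 higher by the 75th percentile. Of the 20 genes 7 passed under both scalings (Gss, Slc7a11, Ggct, Nadk, Pdia4, Selenom and Pex6), and P4hb, Pdia3, Pdia6 and Pex2 by quantiles alone. The count was 13 lower without fasted replicate 1, 12 without fed replicate 1 and 11 without fed replicate 3.

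Among enzymes of disulfide formation in the ER, 6 of 12 genes fell and none rose with the values as deposited. Of all genes 9.51% were lower and 2.29% higher past both thresholds. In 11 of the 12 all fasted arrays lay below all fed arrays, an order that 21.2% of all genes had. The list's median was -0.70, beside -0.19 for all genes. Without this list, 14 of the other 120 genes (11.7%) were lower. Pdia6, a protein disulfide isomerase, measured 1786, 1863 and 1798 in fasted isolates against 3377, 2614 and 3066 in fed isolates, with a log2 ratio of -0.73 (SE 0.10, adjusted p = 0.155 in limma). P4hb, the main protein disulfide isomerase, had a ratio of -0.76 and Pdia4 and Pdia3, further members of this family, had -1.45 and -0.76. Qsox2, a sulfhydryl oxidase, was at -0.68 and Vkorc1l1, which can reoxidize disulfide isomerases, at -0.79. With a common 75th percentile 1 of the 12, Pdia4, passed both thresholds (-1.21), while 6 had an unadjusted p under 0.05. Without fasted replicate 1 Pdia3 was at -0.53, and without fed replicate 3 Qsox2 was at -0.58, both inside 1.5-fold. Vkorc1l1 missed a p of 0.05 with any 1 array left out except fasted replicate 3 (-0.59 to -0.83 in those fits). The part of acinar cells, which are rich in these enzymes, was not tested.

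Prdx4, which uses the peroxide made by ER oxidation to form disulfides, stood beside these enzymes with overlapping groups. The log2 ratio of the Prdx4 signal over the Pdia6 signal within an array was -1.58, -0.97 and -1.24 in fasted isolates against -2.28, -1.59 and -1.76 in fed isolates. The shift was 0.61 and the groups did not overlap, by a small margin between fasted replicate 1 and fed replicate 2 (exact two-sided permutation test, p = 0.1, for a pair chosen after its values were seen). Most of this shift was that of Pdia6 (-0.73), which separated the groups by itself, with Prdx4 at -0.11. Pdia6 also had the largest moderated t of its list. The 6 genes of that list without a call ranged from -0.15 (Ero1a) to -0.73 (Qsox1), with Vkorc1 and Selenof at -0.28. Prdx4 was thus not set apart from every enzyme of the list. For Gpx1 over Cat, chosen likewise, the shift was 0.41 (exact two-sided permutation test, p = 0.2), with overlapping groups. Over these 3 pairs the smallest p of the design was reached by 2, of necessity for Sod2 over Sod1, and it cannot pass 0.05.

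Among genes of glutathione synthesis, recycling and cystine supply 3 of 10 fell and none rose (median -0.29), beside 9.51% lower among all genes. Slc7a11, the cystine carrier, was dim, with 8.35, 8.38 and 12.1 in fasted isolates against 23.0, 19.9 and 21.3 in fed isolates. Every fasted array was well below every fed one, and the log2 ratio was -1.18 (SE 0.32, adjusted p = 0.243 in limma). Gss, glutathione synthetase, had a ratio of -0.95 and Ggct, which breaks down gamma-glutamyl peptides, one of -0.90. Gss missed a p of 0.05 without any 1 of the fed replicates (-0.92 to -0.96), and Ggct did so as the mean of its probe sets (-0.91). Among 6 glutathione peroxidases besides Gpx1, Gpx7, an ER enzyme, passed both thresholds at -1.31, but with 7.29, 15.4 and 28.4 in fasted isolates and 37.8, 28.0 and 46.0 in fed isolates its groups overlapped. It lost the call under both scalings and was at -0.80 without fasted replicate 1. Gpx4, which reduces lipid peroxides, was singled out after its values were seen. It was higher on every fasted array, with 526, 567 and 585 in fasted isolates against 386, 460 and 444 in fed isolates (log2 ratio 0.38, adjusted p = 0.222 in limma), inside 1.5-fold. None of 16 glutathione transferases passed, and of the 2 with the largest moderated t Gsta4 was at -0.45 and Gstm3 at 0.66.

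The list of NRF2 control and other NRF2 targets had 18 genes, among them regulators such as Keap1 and Bach1 and the constitutive Hmox2. It is therefore not a count of NRF2 targets alone. It had 3 falls (16.7%, beside 9.51% of all genes), no rise and a median of -0.39. All 3 falls lost the call under both scalings. Nqo1, a quinone reductase, measured 23.7, 55.9 and 56.5 in fasted isolates against 75.6, 79.1 and 91.9 in fed isolates, where fasted replicate 1 was far below the rest. Its log2 ratio was -0.96 (SE 0.36, adjusted p = 0.313 in limma). Abcc4, an efflux carrier, had a ratio of -0.81 and Hmox2, the constitutive heme oxygenase, one of -0.62. Without fasted replicate 1 Nqo1 was at -0.54 and Hmox2 at -0.35, inside 1.5-fold. Of the 6 fits with 1 array left out, Nqo1 kept the call in 2 (without fasted replicates 2 and 3), Hmox2 in 1 (without fasted replicate 3) and Abcc4 in 4 (all but those without fed replicate 1, at -0.73, and fed replicate 3, at -0.81). Of 10 genes of NADPH supply 2 fell (20.0%), Pgd of the pentose phosphate pathway (-0.69) and the NAD kinase Nadk (-0.86). Pgd lost the call under both scalings (-0.48 and -0.45) and was at -0.51 without fasted replicate 1. Nadk was at -0.49 as the mean of its probe sets and at -0.57 without fasted replicate 1, both times without the call. It also lost the call, at -0.81 to -0.88, without fasted replicate 2, fed replicate 1 or fed replicate 3.

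Of the peroxiredoxins and their repair proteins (8 genes) none passed both thresholds. Prdx5, found in mitochondria and peroxisomes, measured 186, 203 and 200 in fasted isolates against 249, 258 and 264 in fed isolates, without overlap (log2 ratio -0.39, adjusted p = 0.195 in limma). Sesn2, a stress-responsive sestrin, was higher on every fasted array, with 248, 240 and 309 in fasted isolates against 200, 220 and 191 in fed isolates (log2 ratio 0.38, adjusted p = 0.286 in limma). The mean of its probe sets gave 0.12, and equal 75th percentiles gave 0.62 on the brightest one. In the thioredoxin and glutaredoxin system none of 15 genes passed. Glrx, the cytosolic glutaredoxin, was at -0.40 and Txn2, the mitochondrial thioredoxin, at -0.28, both without overlap.

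In the list of selenoprotein synthesis and further selenoproteins 3 of 12 genes fell and none rose, beside 9.51% lower among all genes. Selenom, a thioredoxin-like selenoprotein of the ER, measured 332, 399 and 404 in fasted isolates against 895, 660 and 844 in fed isolates. With a log2 ratio of -1.07 (SE 0.14, adjusted p = 0.155 in limma) the fasted values were well below every fed one. Selenok, a selenoprotein of the ER membrane, had a ratio of -0.64 and Sephs2, which makes selenophosphate, one of -0.63, and both lost the call under both scalings. Selenok was at -0.58 without fed replicate 1, and Sephs2 at -0.49 without fasted replicate 1 and -0.55 without fed replicate 3. Selenow, a small cytosolic selenoprotein singled out after its values were seen, was higher on every fasted array, with 199, 269 and 218 in fasted isolates against 186, 166 and 187 in fed isolates (log2 ratio 0.34, adjusted p = 0.332 in limma). The selenoenzymes Gpx1 and Txnrd1 were at 0.01 and 0.06. Of 12 genes that assemble peroxisomes, the organelle of catalase, Pex6 (-1.25) and Pex2 (-0.81) fell (16.7%). Pex6 was dim, with 8.92, 11.2 and 8.16 in fasted isolates against 24.4, 19.9 and 22.6 in fed isolates. Pex2 lost the call at equal 75th percentiles (-0.57) and without fed replicate 3 (-0.74). None of 11 sources of superoxide and peroxide passed, with Xdh, xanthine dehydrogenase, at -0.64 and Cyba, a subunit of the NADPH oxidase, at 0.61.

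**Figure D4:**
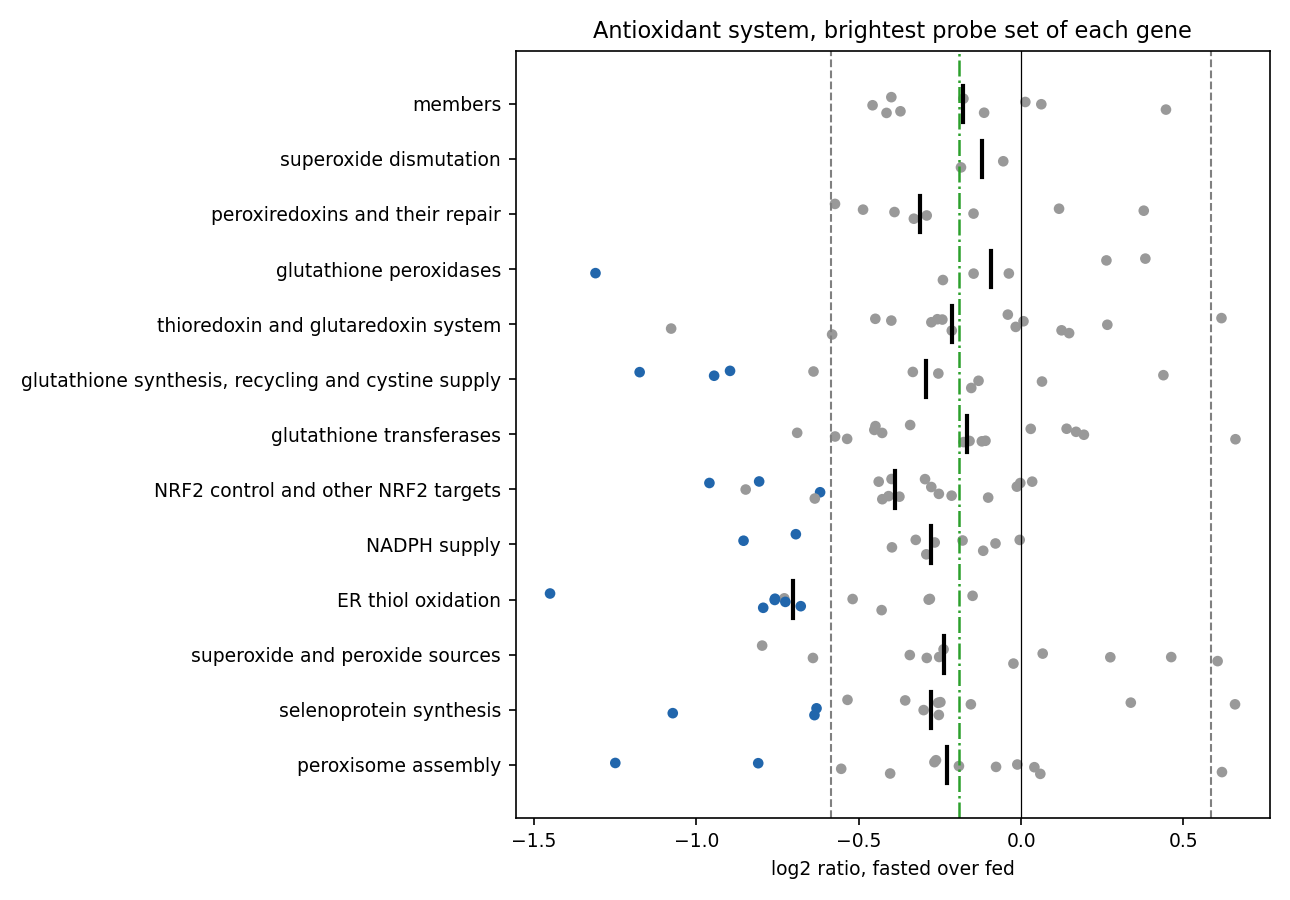
Log2 ratio of fasted over fed (x axis) for the 9 measured genes (top row, named members) and for each list of the wider antioxidant system, 1 point per gene. Blue points passed 1.5-fold and an unadjusted p of 0.05 downwards, grey points did not pass, black bars are list medians, dashed lines mark 1.5-fold and the green line the median of all genes. The ER thiol oxidation list lies farthest to the left, with a median of -0.70, and no gene of any list passed upwards.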

How the data were processed

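Beta cells of 3 fasted and 3 fed isolates were profiled on 1 array each. The authors computed the deposited values with dChip, a model-based method, scaled to the array of median intensity and corrected by the mismatch probes. They are linear intensities, and the dChip version is not given in the sources used here.

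Left out of the fit were 57 control probe sets. Values under the 10th percentile (3.27) were raised to it, which understates changes of dim probe sets. The log2 values went into limma 3.58.1 (R 4.3.3, lmFit and eBayes with intensity trend, 2 groups), and p was adjusted by Benjamini-Hochberg over 31042 probe sets. Of these 20826 carried 1 symbol, 436 several and 9780 none, and of the first kind 20758 matched the current rat gene table. The code was tested on simulated data. Means and SDs are of linear intensities.

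The genes and lists were chosen with earlier results of these data known. All 10 genes are named, and of each list the genes past both thresholds (at most 6), or else the 2 with the largest moderated t. Duct markers named beside Sod2 were singled out after their values were seen.

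Alternatives were Welch's comparison of linear means, a filter on dim probe sets, a higher floor (25th percentile, 7.53) or a pseudocount, 2 scalings, variance without trend or robust, array weights, the replicate block, each replicate left out in turn, and averaging a gene's probe sets. Array weights were estimated gene by gene, a choice made after the data were seen because the default estimate did not converge. Same-numbered arrays correlated at -0.02, 0.10 and -0.08 in their deviations from the group means and were not treated as pairs. Scan dates were not used. Plots were made in matplotlib 3.10.9 (Python 3.11.15).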

Additional observations from a re-analysis of the deposited data

How the results depend on the processing

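Of the 20 genes of the wider system that fell, all had a negative log2 ratio in each alternative run that kept them. Among these, 4 (Pdia4, Pex6, Selenom and Slc7a11) passed both thresholds in each one that kept them. The filter on dim probe sets left out Pex6 and Slc7a11. With equal 75th percentiles 1 of the 9 antioxidant genes was higher at both thresholds (Sod2), 0 were lower and 2 higher at an unadjusted p under 0.05, the median log2 ratio was 0.066, and the wider system had 7 lower and 4 higher genes with a median of -0.032. With quantile normalization the median of the 9 was 0.025 and the wider system had 11 lower and 2 higher genes. The cause was not tested. With single replicates left out, the wider system had 11 to 29 lower and 0 to 2 higher genes, the 9 genes kept 3 lower and 1 higher at an unadjusted p under 0.05, and all probe sets gave 1448 to 5562 lower and 472 to 1536 higher, beside 2616 and 737 with all arrays. Without fasted replicate 3 these counts were the largest. All probe sets gave 1625 lower and 269 higher by linear group means, 1501 and 1275 by quantiles, 1330 and 1428 by the 75th percentile, 4209 and 1302 with array weights, and 379 and 419 higher with only bright probe sets and with the higher floor. No probe set passed an adjusted p of 0.05 in limma as described, where 3612 were lower and 1010 higher at an unadjusted p under 0.05. Other fits passed 1 (higher floor), 83 (pseudocount), 88 (robust variance) and 124 (bright probe sets).

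Ratios near 0 turned sign. Prdx4 was at 0.025 by quantiles, 0.13 by the 75th percentile and 0.10 with array weights, and between -0.28 and 0.057 with a replicate left out. Gclc was at 0.038 and 0.066 under the 2 scalings and between -0.34 and 0.0020 with a replicate left out. Txnrd1 was at -0.20 as the mean of its probe sets and otherwise between -0.0025 and 0.11 with a replicate left out, and Gpx1 between -0.10 and 0.13. Sod3 was at 0.0056 and 0.059 and Ccs at 0.086 and 0.19 under the 2 scalings, and they ranged from -0.34 to 0.039 and from -0.12 to 0.030 with a replicate left out. Gstm3 was at -0.051 with the higher floor. Of the 9 genes Sod1 passed an adjusted p of 0.05 in 1 setting, limma on bright probe sets (0.0428), and was at 0.0553 with array weights and 0.0529 with robust variance. The shift of Sod2 over Sod1, in which a common scaling of an array cancels by construction, stayed between 0.77 and 0.99.

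With the replicate block the 9 genes had the same calls (Sod1 at -0.41, unadjusted p = 0.0029 in limma), and of the named genes Abcc4 lost its call (-0.81, unadjusted p = 0.0575 in limma). Rats were either fasted or fed, so the same numbers did not mark shared animals. Whether they marked a shared day of preparation was not tested. A pool of 5 rats per array and 3 arrays per group limit what can be detected, most of all for the dim probe sets of Hmox1 and Gclc.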
